A study of Mus musculus with 12 samples.

Results

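Collagens, the proteases that cut them and the inhibitors of those proteases were followed in mouse prostate tissue with and without a null allele. The genes were taken by symbol: every Col gene written with a chain number except Col17a1, every numbered Mmp and Adamts gene, and Timp1 to Timp4. This gave 86 of the 23284 genes in the deposited table, 42 of them collagens, 21 Mmp genes, 4 Timp genes and 19 Adamts genes. The rule used symbols and no expression value, but earlier results of these data were known when it was set. The 6 null libraries came from prostate of 4-month-old mice homozygous for a null allele, and the 6 wild-type libraries from prostate of 4-month-old mice with both wild-type alleles. Both groups were of a hybrid 129/SvImJ and C57Bl/6J background, and the labels name no treatment and no cell type to which the loss was restricted. RNA was poly-A selected and sequenced from tissue that holds epithelium, muscle, stroma, vessels and immune cells together.

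Collagens are triple-helical proteins built from alpha chains, and each chain has its own gene. Fibril-forming collagens give the interstitial stroma its strength, type IV collagen makes the sheet of the basement membrane under epithelium, muscle and vessels, and type VI collagen makes beaded microfibrils beside it. Matrix metalloproteases (Mmp genes) are zinc proteases that cut collagens and other matrix proteins, the Timp genes encode their inhibitors, and Adamts genes encode secreted relatives that trim procollagens and cut proteoglycans. In the prostate this matrix lies between the glands and their sheath of smooth muscle.

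All values are on the log2 scale as deposited, and a difference of 1 is read as a doubling. The values have the form of variance-stabilised counts, so fold changes at low values are understated. Genes without signal do not stand at 0 in such values: 1101 olfactory receptor genes had a median of 2.85, and 95% of their values lay under 3.50, called the floor here. No read totals came with the table, and library depth is unknown. A gene was tested if 6 or more libraries reached a value of 4, and limma was fitted over all 15096 such genes with Benjamini-Hochberg adjustment at 0.05. Whether each library is a separate animal is not stated in the labels, and the p-values reflect only how far these libraries differ among themselves, which may be technical. Libraries of each genotype were split into 2 sets of 3 by a search of the values themselves. The sets were null libraries 1, 2 and 5, null libraries 3, 4 and 6, and wild-type libraries 1 to 3 and 4 to 6. The search used the genes that give the distances below, so smaller distances within sets than across them were favoured by it. Over genes averaging 10 or more, the median distance between libraries was 0.228 between genotypes. It was 0.144 across the null sets, 0.0659 within them, 0.109 across the wild-type sets and 0.0563 within them. Each difference was therefore also tested over the 4 set means, and that p-value is given beside each difference called over 12 libraries. The defining markers of prostate secretion were low in null libraries. Of 4 tested, 4 fell, also over set means, and their summed level was 16.13 to 16.39 in null and 19.92 to 20.16 in wild-type libraries. Of 8 seminal vesicle markers 8 were called higher, 6 over set means, though 4 of them reached the filter through null libraries alone, and their summed level was 16.84 to 20.29 in null and 7.99 to 11.65 in wild-type libraries. The part of these shifts in the results below was not tested.

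Of the 86 genes, 72 were high enough to test and 14 were not. Over 12 libraries 39 of the 72 (54.2%) were called, 20 higher and 19 lower in null prostate, beside 53.1% of all tested genes (28.0% higher and 25.1% lower). The members were thus called about as often as tested genes in general. Among called genes, 51.3% of members and 52.7% of all genes were higher in null prostate, and with upper quartile scaling of the libraries 43.2% and 40.9% were. Over set means 15 of the 72 (20.8%) were called, 6 higher and 9 lower, beside 14.5% of all tested genes (7.58% higher and 6.96% lower). Of the 72 members Col6a6 and Mmp8 reached the filter through wild-type libraries alone, with no overlap and a null mean under 4. Such genes enter the test only where the groups differ, and these 2 are described below by their values without a p-value. The same held in 1 genotype or the other for 198 of all tested genes. Without these, 37 of 70 members (52.9%) were called, 20 higher and 17 lower, beside 52.5% of 14898 genes, and 13 members were called over set means, 6 higher and 7 lower. The 6 null and 6 wild-type values did not overlap for 24 of the 72 members (33.3%), beside 32.6% of all tested genes. Both shares include genes that reached the filter through 1 genotype, for which lack of overlap is part of the definition. Differences of at least 2-fold were called for 9 of the 72 (12.5%), 2 higher and 7 lower. Of all tested genes 7.01% were so called (2.99% higher and 4.01% lower). Without genes that reached the filter through 1 genotype, 7 of 70 members and 906 of 14898 genes were. The median difference was 0.0088 over the tested members and 0.012 over all tested genes, and the median size without regard to sign was 0.347 and 0.247.

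**Figure D1:**
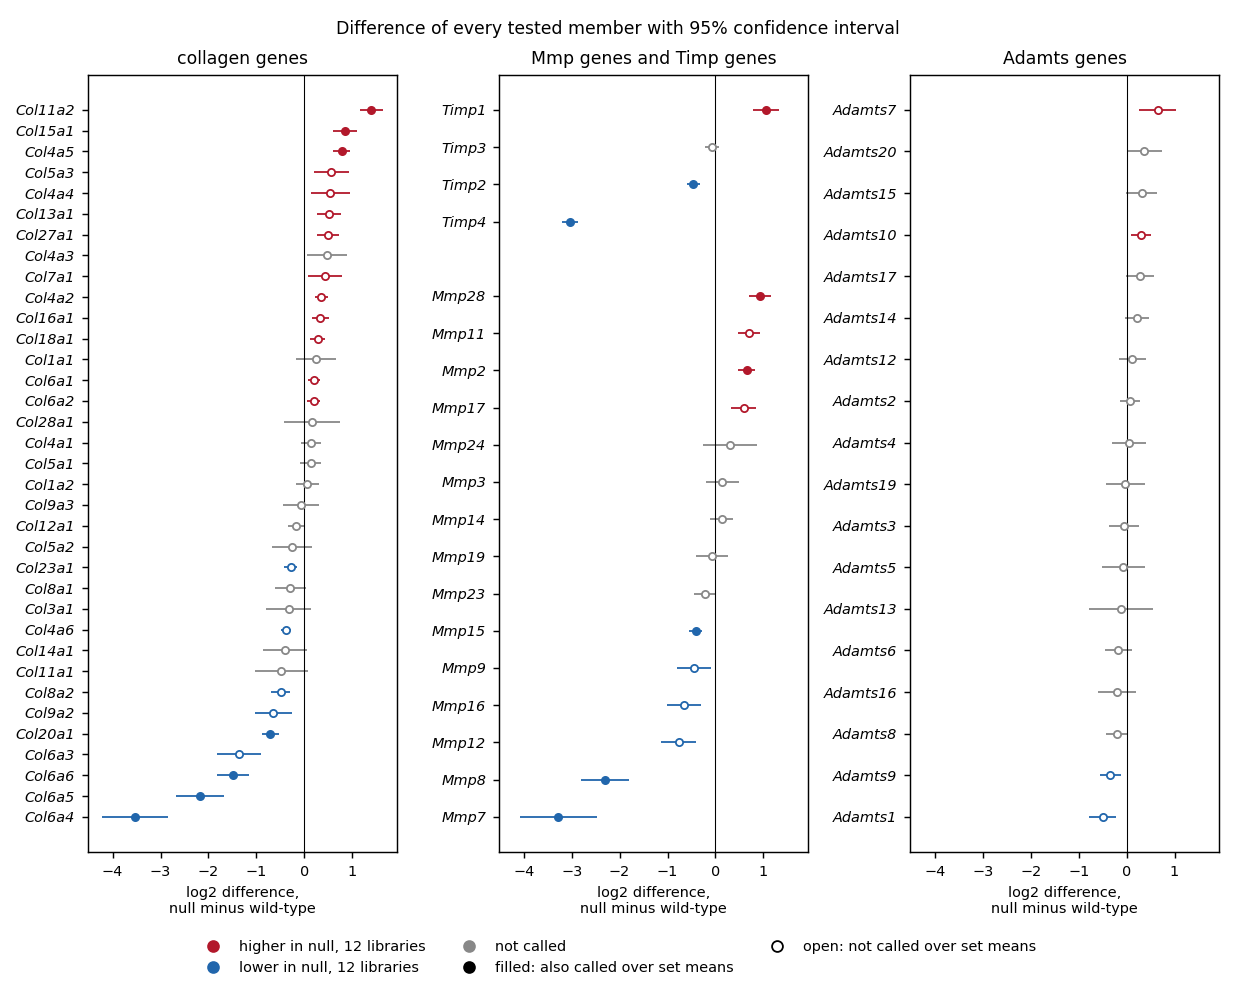
Log2 difference (null minus wild-type) of the 72 tested members with its 95% confidence interval from limma, collagens on the left, Mmp and Timp genes in the middle and Adamts genes on the right. Filled points were also called over set means. The lowest points are Col6a4 at -3.53, Mmp7 at -3.28 and Timp4 at -3.04, the highest is Col11a2 at 1.40, and the Adamts genes lie within 1 of 0.

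Of all tested genes 28.0% rose and 25.1% fell. By family, of 35 tested collagens 13 rose (37.1%), 9 fell (25.7%) and 13 were not called. Of 15 tested Mmp genes 4 rose (26.7%), 6 fell (40%) and 5 were not called. Of the 4 Timp genes 1 rose, 2 fell and 1 was not called, and of 18 tested Adamts genes 2 rose, 2 fell and 14 were not called. Over set means 3 collagens, 2 Mmp genes and 1 Timp gene rose, beside 7.58% of all tested genes. There 4 collagens, 3 Mmp genes and 2 Timp genes fell, beside 6.96% of all tested genes. These counts of lower genes include Col6a6 among the collagens and Mmp8 among the Mmp genes. None of the Adamts genes was called over set means by limma, and 1 had an unadjusted p under 0.05. No difference between the families was tested.

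Some of the large differences fell on genes that are neighbours on a chromosome, and in another pair of neighbours the genes moved apart, so promoters of these genes are shown where RefSeq had an entry. Each window runs from 250 bases before to 50 bases after the annotated start, 5′ to 3′ on the gene's own strand, from RefSeq in build GRCm38.p6. Capitals mark 4 motifs searched on both strands, TATAAA (in 13.6% of 32851 windows), GGGCGG (35.7%), TGANTCA (7.81%) and CCAAT (37.4%). In Mmp7 a CCAAT overlaps a TATAAA. Of the 86 members 64 had a window, and 13, 40, 7 and 21 of these genes held the motifs, in that order, in any of their windows. A gene can have several windows, so these counts of genes and the shares of windows are unlike measures.
Mmp7 (chr9:7691840-7692139, plus strand): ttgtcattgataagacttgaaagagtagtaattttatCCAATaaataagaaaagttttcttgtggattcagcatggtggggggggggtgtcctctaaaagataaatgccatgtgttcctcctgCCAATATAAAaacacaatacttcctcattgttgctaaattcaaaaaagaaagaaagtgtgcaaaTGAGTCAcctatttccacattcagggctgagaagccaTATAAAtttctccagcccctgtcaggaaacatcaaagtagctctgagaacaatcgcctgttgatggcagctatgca
Mmp20 (chr9:7627981-7628280, plus strand): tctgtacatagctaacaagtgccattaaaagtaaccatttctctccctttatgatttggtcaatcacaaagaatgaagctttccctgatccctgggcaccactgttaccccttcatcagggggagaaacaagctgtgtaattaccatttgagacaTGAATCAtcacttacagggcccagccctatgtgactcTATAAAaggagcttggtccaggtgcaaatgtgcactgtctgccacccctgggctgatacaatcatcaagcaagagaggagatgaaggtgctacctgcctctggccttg
Col6a4 (chr9:106096642-106096941, minus strand): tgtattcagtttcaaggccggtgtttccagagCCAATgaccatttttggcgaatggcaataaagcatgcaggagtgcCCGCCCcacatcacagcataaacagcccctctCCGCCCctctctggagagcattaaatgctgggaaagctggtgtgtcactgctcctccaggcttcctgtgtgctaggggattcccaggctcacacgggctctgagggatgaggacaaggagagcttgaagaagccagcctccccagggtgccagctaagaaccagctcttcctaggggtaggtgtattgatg
Col6a5 (chr9:105960594-105960893, minus strand): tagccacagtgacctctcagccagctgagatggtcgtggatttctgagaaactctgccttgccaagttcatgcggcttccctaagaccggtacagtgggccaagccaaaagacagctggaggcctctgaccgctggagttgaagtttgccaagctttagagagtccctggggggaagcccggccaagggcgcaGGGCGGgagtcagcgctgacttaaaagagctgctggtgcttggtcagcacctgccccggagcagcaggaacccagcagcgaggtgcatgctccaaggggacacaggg
Col6a6 (chr9:105828036-105828335, minus strand): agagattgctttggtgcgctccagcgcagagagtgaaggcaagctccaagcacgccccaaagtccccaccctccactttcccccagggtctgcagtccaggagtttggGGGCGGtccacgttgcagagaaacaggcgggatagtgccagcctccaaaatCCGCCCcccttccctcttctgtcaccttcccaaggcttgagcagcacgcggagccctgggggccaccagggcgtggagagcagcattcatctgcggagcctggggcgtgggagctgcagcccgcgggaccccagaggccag
Col4a5 (chrX:141475169-141475468, plus strand): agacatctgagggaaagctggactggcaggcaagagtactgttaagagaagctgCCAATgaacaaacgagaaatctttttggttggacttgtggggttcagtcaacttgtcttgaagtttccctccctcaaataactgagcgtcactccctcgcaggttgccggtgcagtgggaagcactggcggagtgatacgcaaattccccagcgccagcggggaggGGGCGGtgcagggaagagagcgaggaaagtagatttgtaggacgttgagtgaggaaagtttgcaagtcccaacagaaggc
Col4a6 (chrX:141474027-141474326, minus strand): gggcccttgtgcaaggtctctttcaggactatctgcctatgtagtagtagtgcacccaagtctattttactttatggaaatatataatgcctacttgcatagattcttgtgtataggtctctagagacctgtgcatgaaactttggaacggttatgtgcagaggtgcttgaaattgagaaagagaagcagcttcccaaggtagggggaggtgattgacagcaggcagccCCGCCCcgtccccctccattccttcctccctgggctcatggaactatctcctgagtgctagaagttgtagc
The Mmp7 and Mmp20 windows hold TATAAA and TGANTCA matches and no GGGCGG, while the type VI and type IV windows hold GGGCGG matches and no TATAAA. Mmp7 has another annotated start in the same table, whose window is not shown. A match of letters is a description and not a binding site.

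Among the proteases, the largest fall was that of Mmp7, which encodes matrilysin, a small metalloprotease made by glandular epithelia. Mmp7 had values of 10.66, 11.13 and 11.86 (lowest, median and highest) in null libraries and 13.63, 14.42 and 15.18 in wild-type libraries. The groups were far apart, and the wild-type libraries themselves split, libraries 1 to 3 lying at 13.63 to 13.70 while libraries 4 to 6 lay at 15.13 to 15.18. Mmp7 fell by 3.28 (SE 0.37, adjusted p = 1.7e-05 and 0.028 over set means), a 9.71-fold lower level in null prostate. Because the tissue was sequenced in bulk, fewer cells of a type and less RNA per cell cannot be told apart here or in any result that follows.

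Mmp8, a collagenase best known from neutrophils, showed the same order of the 2 wild-type sets. Its values were 2.75, 3.32 and 3.62 in null libraries and 4.99, 5.46 and 6.17 in wild-type libraries, with wild-type libraries 4 to 6 again above 1 to 3. All but 1 of the null values lay at or below the 3.50 of undetected genes, so the size of the difference is limited by that floor. The mean was 2.31 lower in null libraries, and Mmp8 was among the tested genes through its wild-type values alone, 0 null and 6 wild-type libraries reaching 4. Of 5 neutrophil markers in the table only Csf3r could be tested, and it fell by 0.92 over 12 libraries (adjusted p = 2.3e-04) but not over set means (adjusted p = 0.058). Cxcr2 and Mpo stood at the floor, and the summed level of the 5 was 5.72 to 6.32 in null and 6.36 to 6.79 in wild-type libraries. The part of neutrophils in the values of Mmp8 was not tested.

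Mmp7 and Mmp8 belong to a row of Mmp genes on chromosome 9, of which only Mmp12, Mmp3, Mmp8 and Mmp7 could be tested. Whether the row moved as a block cannot be told, because its other genes were too low. In the order of the RefSeq annotation (GRCm38.p6, used for gene order only) it runs Mmp13, Mmp12, Mmp1b, Mmp3, Mmp1a, Mmp10, Mmp8, Mmp27, Mmp20 and Mmp7. Next to Mmp7, Mmp20, which encodes the enamel protease enamelysin, had 2.59, 3.15 and 3.61 in null libraries and 3.86, 4.93 and 5.58 in wild-type libraries. Mmp27, the neighbour of Mmp20, had 2.27, 2.85 and 3.1 in null libraries and 3.37, 3.61 and 4.00 in wild-type libraries. Both sat too low to be tested, and in both the groups did not overlap. Mmp12, the macrophage elastase, fell by 0.77 (SE 0.17, adjusted p = 0.0019 and 0.080 over set means), with overlapping groups. Mmp3 was not called (difference 0.14, adjusted p = 0.48), and the differences of Mmp13 (0.07), Mmp1b (-0.08), Mmp1a (0.12) and Mmp10 (-0.52) came from values near the floor.

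The genes that flank the row were looked at after the values of Mmp7 had been seen. Beyond Mmp7, Tmem123 fell by 0.38 (adjusted p = 6.2e-04 and 0.13 over set means) and Birc2 by 0.27 (adjusted p = 0.0015 and 0.15 over set means). Birc3, an inhibitor of apoptosis, fell by 1.24 (adjusted p = 3.3e-06 and 0.019 over set means). Yap1, which follows them, was not called (difference 0.07, adjusted p = 0.23). On the other side of the row Dync2h1 rose by 0.29 (adjusted p = 2.6e-04 and 0.093 over set means) and Dcun1d5 was not called (difference 0.09). Over 12 libraries falls were thus called in Mmp12 near one end of the row and in Mmp7, Tmem123, Birc2 and Birc3 at the other. Of these only Mmp7 and Birc3 were called over set means. Mmp8 was lower but reached the filter through wild-type libraries alone, and Mmp27 and Mmp20 were lower but too low to test. Between Mmp12 and Mmp8 only Mmp3 was tested, itself with values near 4, and it was not called. Mmp1b, Mmp1a and Mmp10 were also too low to test, Mmp10 with a mean lower by 0.52 and overlapping groups.

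**Figure D2:**
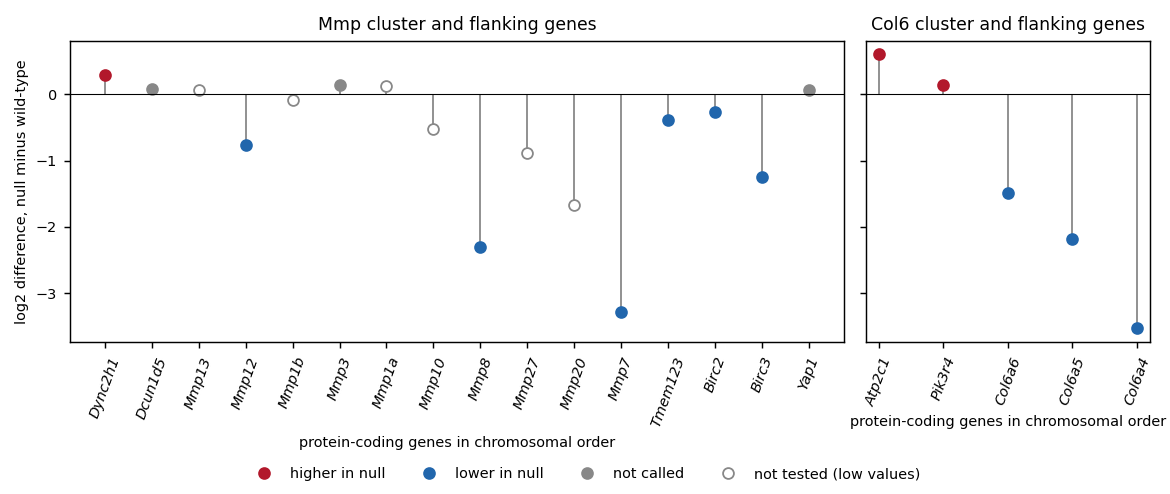
Log2 difference (null minus wild-type) of protein-coding genes in the order in which they stand on chromosome 9, for the Mmp row with its flanking genes on the left and the Col6a6, Col6a5 and Col6a4 row on the right. The deepest points are Mmp7 at -3.28 and Col6a4 at -3.53, and open points mark genes too low to test.

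The other metalloproteases moved by less. Mmp2, gelatinase A, had 9.26, 9.56 and 9.74 in null libraries and 8.80, 8.87 and 8.93 in wild-type libraries, so that every null value lay above every wild-type value. Mmp2 rose by 0.65 (SE 0.080, adjusted p = 1.1e-05 and 0.035 over set means), a 1.57-fold higher level. Mmp9, gelatinase B, went the other way, with 5.73, 6.30 and 6.84 in null libraries and 6.63, 6.73 and 7.0 in wild-type libraries. The groups overlapped, and its fall by 0.45 was called at adjusted p = 0.033 but not over set means (adjusted p = 0.27). The call of Mmp9 was also lost without null library 3, 4 or 6 or wild-type library 1, 5 or 6 (adjusted p = 0.051 to 0.071). Within a library Mmp2 stood above Mmp9 by 3.22 ± 0.27 in null and 2.13 ± 0.12 in wild-type libraries (SD, n = 6 each), a pair chosen after the values were seen and given without a test.

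Mmp9 and Mmp12 are made largely by myeloid cells. All 10 tested myeloid markers, among them C1qa, Csf1r and Emr1, fell over 12 libraries, beside 25.1% of all tested genes. Over set means 1 fell by limma, beside 6.96% of all tested genes, and 8 were lower at an unadjusted p under 0.05. The summed level of the 10 markers was 11.41 to 11.50 in null and 11.93 to 12.79 in wild-type libraries. The part of that shift in the values of Mmp9 and Mmp12 was not tested.

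Mmp28, which encodes epilysin, a secreted protease of epithelia, had 6.04, 6.41 and 6.60 in null libraries and 5.34, 5.44 and 5.63 in wild-type libraries. It rose by 0.93 (SE 0.11, adjusted p = 6.4e-06 and 0.030 over set means), with no overlap. Mmp11, stromelysin-3 of stromal cells, had 6.10, 6.38 and 6.59 in null libraries and 5.49, 5.69 and 5.84 in wild-type libraries. Its rise by 0.70 had adjusted p = 5.9e-05 and missed the threshold over set means at 0.059.

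The membrane-anchored proteases split. Mmp15, anchored by a transmembrane segment, had 10.43, 10.75 and 10.83 in null libraries and 10.99, 11.13 and 11.16 in wild-type libraries. It fell by 0.41 (SE 0.062, adjusted p = 7.2e-05 and 0.044 over set means). Mmp17, anchored by a lipid, had 7.93, 8.28 and 8.48 in null libraries and 7.33, 7.79 and 7.86 in wild-type libraries. Its rise by 0.59 passed over 12 libraries (SE 0.12, adjusted p = 8.8e-04) and not over set means (adjusted p = 0.068). Mmp16 fell by 0.65 with overlapping groups (adjusted p = 0.0043 and 0.078 over set means). Mmp14, the main activator of pro-Mmp2, was not called, with 8.81 ± 0.21 in null and 8.68 ± 0.23 in wild-type libraries (SD, n = 6 each) and a 95% confidence interval of the difference of -0.11 to 0.38. Mmp19, Mmp23 and Mmp24 were not called either, with differences of -0.07, -0.22 and 0.31. Mmp10, Mmp13, Mmp21 and Mmp25 stayed between 2.3 and 4.41 in every library and were not tested.

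The inhibitors changed in opposite directions. Timp4, an inhibitor of restricted tissue distribution, had 7.47, 7.80 and 7.89 in null libraries and 10.64, 10.79 and 10.95 in wild-type libraries. It varied little within each genotype, with a SD of 0.16 in null and 0.13 in wild-type libraries. Timp4 fell by 3.04 (SE 0.079, adjusted p = 9.1e-13), and of all members it had the lowest adjusted p over set means (0.00045). The level in null prostate was 8.21-fold lower.

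Timp1, the most inducible of the inhibitors, had 7.62, 8.20 and 8.45 in null libraries and 6.86, 7.08 and 7.22 in wild-type libraries. It rose by 1.06 (SE 0.12, adjusted p = 5.9e-06 and 0.011 over set means), a 2.08-fold higher level with no overlap. Within a library Timp4 minus Timp1 was -0.37 ± 0.40 in null and 3.72 ± 0.18 in wild-type libraries (SD, n = 6 each), a pair also chosen after the values were seen.

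Timp2, which inhibits metalloproteases and also serves in the activation of pro-Mmp2, had 11.21, 11.41 and 11.57 in null libraries and 11.78, 11.85 and 11.93 in wild-type libraries. It fell by 0.46 (SE 0.061, adjusted p = 2.0e-05 and 0.035 over set means). Timp3, the inhibitor that binds to the matrix, was not called, with 11.27 ± 0.17 in null and 11.35 ± 0.07 in wild-type libraries and a 95% confidence interval of -0.22 to 0.07. Without null libraries 1, 2 and 5 it was called lower by 0.16 (adjusted p = 0.020).

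Timp1, Timp3 and Timp4 lie inside the synapsin genes Syn1, Syn3 and Syn2 in the RefSeq annotation, and the sources used here do not say whether reads were counted by strand. Syn2, the host of Timp4, was not called, with 6.22 ± 1.13 in null and 6.69 ± 0.64 in wild-type libraries (SD, n = 6 each, adjusted p = 0.44). Syn1 (difference -0.04) and Syn3 (-0.09) were not called.

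**Figure D3:**
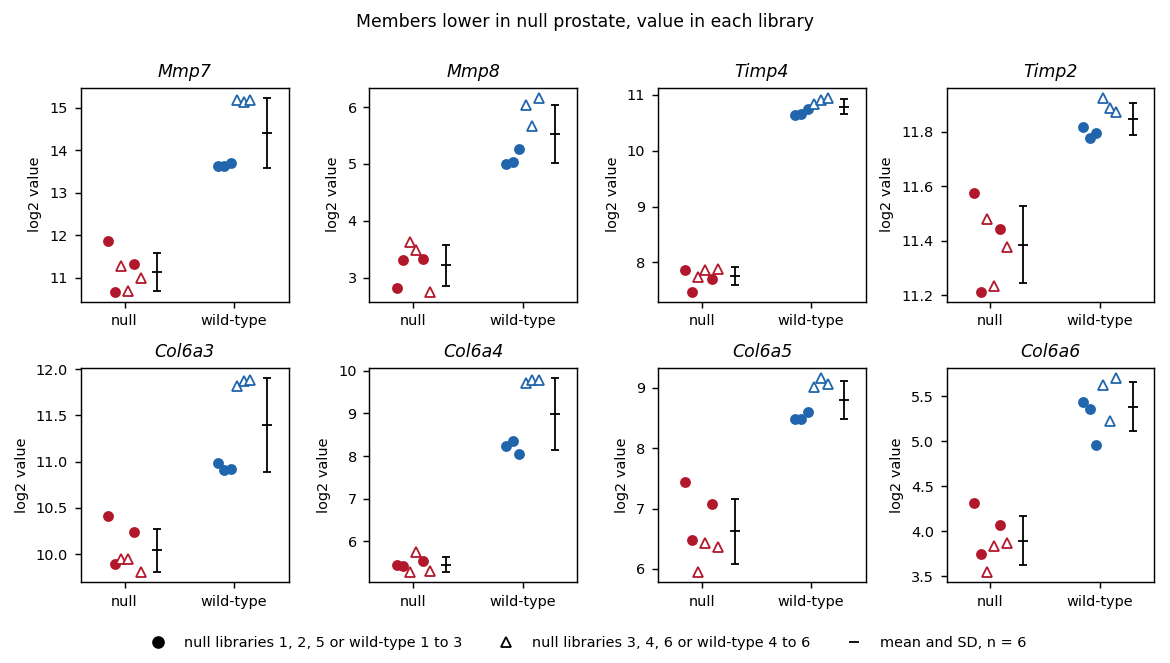
Log2 value in each library of 8 members lower in null prostate, null libraries in red on the left and wild-type libraries in blue on the right of each panel, with the mean and SD (n = 6) as a bar. Circles and triangles mark the 2 sets of libraries. Among the panels the wild-type sets stand farthest apart in Col6a4 (1.54) and Mmp7 (1.51), while Timp4 has a SD of 0.16 in null and 0.13 in wild-type libraries.

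Of the 6 type VI collagen genes 2 rose and 3 fell, and Col6a6 was also lower but reached the filter through wild-type libraries alone. The chain encoded by Col6a3 joins those of Col6a1 and Col6a2 in the trimer, and the chains of Col6a4, Col6a5 and Col6a6 resemble that of Col6a3. The lower genes were those of the alternative chains and Col6a3. Col6a4 had 5.28, 5.43 and 5.75 in null libraries and 8.06, 9.03 and 9.79 in wild-type libraries. Wild-type libraries 1 to 3 gave 8.06 to 8.34 while libraries 4 to 6 gave 9.71 to 9.79. It fell by 3.53 (SE 0.32, adjusted p = 1.4e-06 and 0.018 over set means), an 11.6-fold lower level and the largest difference of any tested member.

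Col6a5 had 5.94, 6.45 and 7.44 in null libraries and 8.48, 8.80 and 9.17 in wild-type libraries, with null libraries 1 and 5 the highest of their genotype at 7.44 and 7.07. It fell by 2.18 (SE 0.23, adjusted p = 4.2e-06 and 0.015 over set means). Col6a6 had 3.54, 3.85 and 4.32 in null libraries, close to the floor, and 4.96, 5.39 and 5.70 in wild-type libraries. The mean was 1.49 lower in null libraries, of which 2 reached 4, beside all 6 wild-type libraries. For these 3 genes the groups did not overlap.

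Col6a6, Col6a5 and Col6a4 stand in a row on chromosome 9, each with the promoter window printed above, and all of them were lower in null prostate. The nearest genes on the Col6a6 side, Pik3r4 and Atp2c1, rose, by 0.15 (adjusted p = 0.030 and 0.39 over set means) and by 0.60 (adjusted p = 1.8e-07 and 0.017 over set means).

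Col6a3, which lies elsewhere, on chromosome 1, had 9.80, 9.95 and 10.41 in null libraries and 10.91, 11.40 and 11.89 in wild-type libraries. Wild-type libraries 1 to 3 stood at 10.91 to 10.99 and libraries 4 to 6 at 11.82 to 11.89. It fell by 1.36 over 12 libraries (SE 0.21, adjusted p = 1.6e-04) and missed the threshold over set means (adjusted p = 0.055).

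Col6a1 and Col6a2, the constant chains, were called higher by 0.20 each (adjusted p = 0.013 and 0.021), with overlapping groups. Neither passed over set means (adjusted p = 0.27 for both), with quantile normalization (0.12 and 0.15) or with upper quartile scaling (0.12 and 0.16). Within a library Col6a3 minus Col6a1 was -0.46 ± 0.17 in null and 1.1 ± 0.45 in wild-type libraries (SD, n = 6 each), a pair chosen after the values were seen and given without a test.

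Type IV collagen showed smaller and opposed differences. Its 6 genes lie head to head in 3 pairs, and 3 rose, 1 fell and 2 were not called. Col4a5 had 10.34, 10.69 and 10.83 in null libraries and 9.70, 9.87 and 9.95 in wild-type libraries. It rose by 0.78 (SE 0.080, adjusted p = 1.8e-06 and 0.020 over set means), a 1.71-fold higher level with no overlap. Col4a6, its neighbour on the opposite strand of chromosome X, had 13.24, 13.37 and 13.51 in null libraries and 13.72, 13.76 and 13.77 in wild-type libraries. It fell by 0.37 (SE 0.048, adjusted p = 1.6e-05), again with no overlap, but not over set means (adjusted p = 0.084). The chains of both genes join in a network of the basement membranes of some epithelia and of smooth muscle.

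The members of a pair were also compared within each library. Col4a5 minus Col4a6 was -2.75 ± 0.19 in null and -3.90 ± 0.12 in wild-type libraries (SD, n = 6 each), and every null value (-3.00 to -2.49) lay above every wild-type value (-4.07 to -3.78). Col4a2 minus Col4a1 was -0.43 ± 0.14 in null and -0.64 ± 0.058 in wild-type libraries, with overlap through null library 1 alone, at -0.68. Col4a4 minus Col4a3 was 0.10 ± 0.089 in null and 0.04 ± 0.24 in wild-type libraries, with overlap. The pairs were chosen after the values were seen and carry no test.

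Col4a2 had 10.06, 10.20 and 10.37 in null libraries and 9.77, 9.85 and 9.95 in wild-type libraries. It rose by 0.35 (SE 0.063, adjusted p = 2.8e-04 and 0.11 over set means) with no overlap. Its partner Col4a1, the other main chain of basement membranes, was not called, with 10.63 ± 0.23 in null and 10.49 ± 0.13 in wild-type libraries (95% confidence interval -0.07 to 0.35). Col4a3 and Col4a4, whose chains are known from kidney, lung and other specialised membranes, moved as a pair between the null sets, 0.72 and 0.76 higher in null libraries 3, 4 and 6 than in 1, 2 and 5. Col4a4 was called higher by 0.54 (adjusted p = 0.026 and 0.24 over set means) and Col4a3 was not, at 0.48 (adjusted p = 0.055). The call of Col4a4 was lost without null library 3, 4 or 6 or wild-type library 1 or 3 (adjusted p = 0.053 to 0.059), while Col4a3 was called without null library 2 (adjusted p = 0.0035) or 5 (adjusted p = 0.037).

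**Figure D4:**
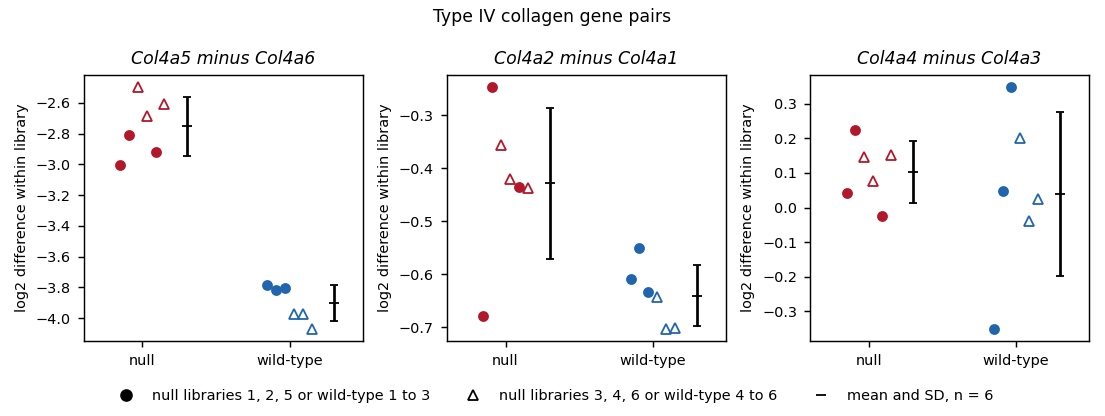
Log2 difference within each library between the members of the 3 type IV gene pairs, null libraries in red on the left and wild-type libraries in blue on the right of each panel, with the mean and SD (n = 6). For Col4a5 minus Col4a6 the null libraries lie between -3.00 and -2.49 and the wild-type libraries between -4.07 and -3.78, while the other panels show overlap.

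Genes for proteins that share the basement membrane with type IV collagen were followed as a list, chosen with earlier results of these data known. Of 22 tested, 16 rose, 1 fell and 5 were not called, with a median difference of 0.51, beside 28.0% higher, 25.1% lower and a median of 0.012 over all tested genes. Over set means 9 of the 22 rose and none fell, beside 7.58% and 6.96% of all tested genes. The laminin genes Lama5 (1.01, adjusted p = 3.0e-10 and 0.0053 over set means), Lamb2 (0.67, adjusted p = 3.8e-07 and 0.016) and Lamc3 (1.15, adjusted p = 5.6e-07 and 0.012) had the lowest p-values of the list over 12 libraries. Of 6 basal epithelial markers 5 rose, 2 of them over set means, with a summed level of 12 to 12.52 in null and 11.64 to 11.85 in wild-type libraries. Of 8 endothelial markers 1 rose and 1 fell, over set means 0 and 1, with summed levels of 10.58 to 11.15 in null and 10.62 to 11.10 in wild-type libraries. Of 6 pericyte markers 3 rose and 1 fell, over set means 1 and 0, with 9.80 to 10.40 in null and 9.63 to 9.92 in wild-type libraries. The part of these cells in the values of type IV collagen and laminin genes was not tested.

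The multiplexins, collagens of the basement membrane zone, both rose. Col15a1 had 9.16, 9.73 and 9.92 in null libraries and 8.60, 8.76 and 8.93 in wild-type libraries, with no overlap. Its rise by 0.85 (SE 0.12, adjusted p = 4.4e-05) held over set means (adjusted p = 0.028). Col18a1, the precursor of endostatin, was called higher by 0.28 (adjusted p = 0.0049), with overlapping groups, and not over set means (adjusted p = 0.16).

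Of 9 tested fibril-forming collagens, the bulk of the interstitial stroma, Col11a2, Col5a3 and Col27a1 rose and 6 were not called. The median size of their differences without regard to sign was 0.328, beside 0.247 over all tested genes. Col11a2, a chain of type XI collagen best known from cartilage, had 5.87, 6.16 and 6.47 in null libraries and 4.53, 4.80 and 4.88 in wild-type libraries. It rose by 1.40 (SE 0.11, adjusted p = 1.5e-07 and 0.012 over set means), a 2.64-fold higher level and the largest rise of any member. Of 3 tested chondrocyte markers 1, Sox9, rose, by 0.46 (adjusted p = 1.3e-06 and 0.025 over set means). Acan, Matn1 and Matn3 stood at the floor, and Col2a1, the defining collagen of cartilage, stood between 2.03 and 3.73 in every library. Col5a3 rose by 0.56 (adjusted p = 0.013 and 0.20 over set means) and Col27a1 by 0.50 (adjusted p = 0.0012 and 0.056 over set means), with overlapping groups for both genes. The call of Col5a3 was lost without null libraries 1, 2 and 5 (difference 0.19, adjusted p = 0.16). It was also lost without wild-type libraries 1 to 3 (adjusted p = 0.057) or 4 to 6 (adjusted p = 0.0996).

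The genes of types I and III collagen gave no call, but their wild-type libraries stood apart by set. Col1a1 had 10.28, 10.55 and 10.71 in null libraries and 9.72, 10.26 and 10.76 in wild-type libraries, of which libraries 1 to 3 were the low ones. Col1a2 had 10.74, 11.07 and 11.22 in null libraries and 10.68, 10.94 and 11.21 in wild-type libraries. Col3a1 had 10.57, 11.16 and 11.41 in null libraries and 10.87, 11.46 and 11.90 in wild-type libraries. The wild-type sets stood 0.89 apart in Col1a1 and in Col3a1. Of the null values of Col1a1, that of library 1 lay within the range of wild-type libraries 4 to 6, and the others lay between the wild-type sets.

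The calls of these genes depended on the wild-type set. Against wild-type libraries 1 to 3 alone, Col1a1 was higher by 0.69 (adjusted p = 6.0e-05) and Col1a2 by 0.29 (adjusted p = 0.027). Against wild-type libraries 4 to 6 alone, Col3a1 was lower by 0.77 (adjusted p = 0.0018) and Col11a1 by 1.04 (adjusted p = 0.0012). Col5a2 was called in opposite directions, higher by 0.22 against libraries 1 to 3 (adjusted p = 0.034) and lower by 0.71 against libraries 4 to 6 (adjusted p = 1.5e-05). Over all 12 libraries the differences were 0.25 for Col1a1, 0.07 for Col1a2, -0.33 for Col3a1, -0.25 for Col5a2, -0.48 for Col11a1 and 0.13 for Col5a1, and none of these 6 was called.

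Summed levels of stromal markers overlapped between the genotypes. Over 12 libraries 28.0% of all tested genes rose and 25.1% fell. Beside these, of 8 fibroblast markers 3 fell and 5 were not called, with summed levels of 14.19 to 14.52 in null and 14.47 to 14.55 in wild-type libraries. Of 8 smooth muscle markers 1 rose and 7 were not called, with 15.84 to 16.63 in null and 16.16 to 16.35 in wild-type libraries. Neither list had a member called over set means by limma or at an unadjusted p under 0.05 there. The part of stromal content in the collagen values was not tested.

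Of the remaining collagens, those on the surface of fibrils and those of short-chain and transmembrane type gave isolated differences. Col20a1, a fibril-associated collagen, had 8.26, 8.54 and 8.80 in null libraries and 9.18, 9.21 and 9.33 in wild-type libraries. It fell by 0.71 (SE 0.086, adjusted p = 9.2e-06 and 0.010 over set means), with no overlap. Of the other tested members of that class Col16a1 rose by 0.34 (adjusted p = 0.0027 and 0.12 over set means), Col9a2 fell by 0.64 (adjusted p = 0.0083 and 0.093 over set means), and Col9a3, Col12a1 and Col14a1 were not called, at -0.06 to -0.39. Without null library 1, Col12a1 (adjusted p = 0.0086) and Col14a1 (adjusted p = 0.010) were called lower by limma. Col12a1 was also called lower with quantile normalization (adjusted p = 0.027) and upper quartile scaling (adjusted p = 0.029). Col8a2, a chain of short-chain networks, had 6.56, 6.80 and 7.08 in null libraries and 7.20, 7.31 and 7.46 in wild-type libraries. It fell by 0.49 (adjusted p = 4.4e-04 and 0.080 over set means), and Col8a1 was not called (-0.29).

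Col13a1, a transmembrane collagen, had 5.80, 6.11 and 6.18 in null libraries and 5.22, 5.60 and 5.70 in wild-type libraries. Its rise by 0.52 (adjusted p = 0.0016) was not called over set means (adjusted p = 0.14). Col23a1, of the same class, fell by 0.29 (adjusted p = 0.0019 and 0.14 over set means). Col7a1, the collagen of the fibrils that anchor epithelium, was called higher by 0.43 (adjusted p = 0.039 and 0.23 over set means), and that call was lost without null library 2 or 5 or wild-type library 1, 2 or 3 (adjusted p = 0.071 to 0.085) and with either other scaling (0.069 and 0.078). Col28a1 was not called (0.17). Col2a1, Col9a1, Col10a1, Col19a1, Col22a1, Col24a1 and Col25a1 were too low to test.

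**Figure D5:**
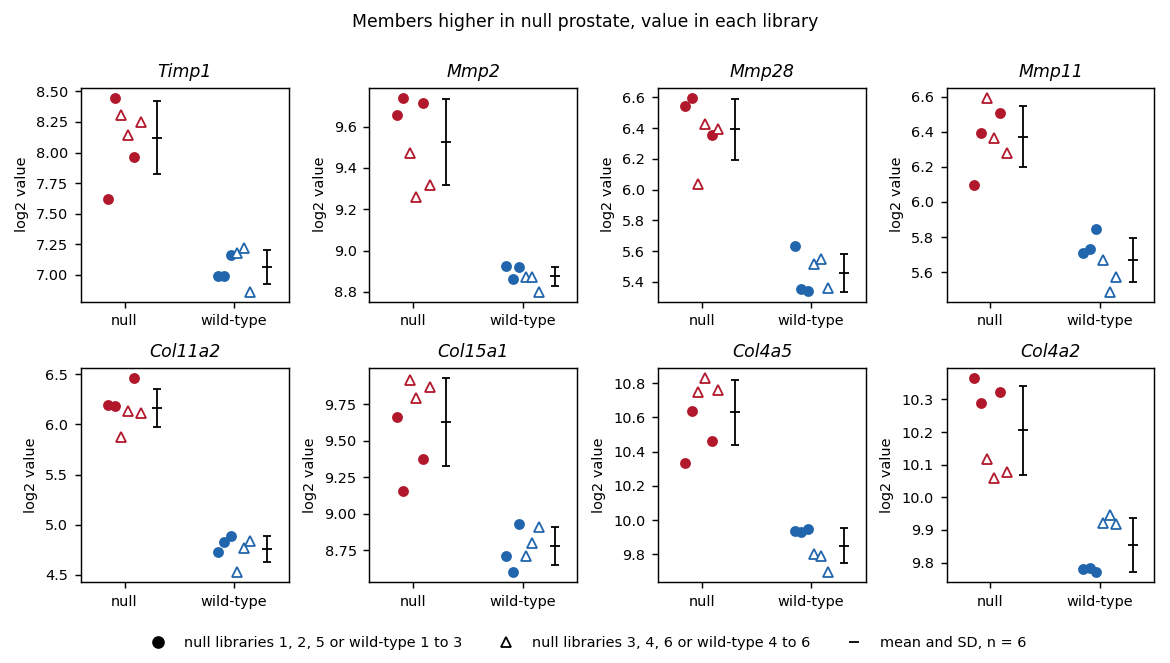
Log2 value in each library of 8 members higher in null prostate, null libraries in red on the left and wild-type libraries in blue on the right of each panel, with the mean and SD (n = 6) as a bar. Circles and triangles mark the 2 sets of libraries. No panel has overlap between genotypes, and the null SD is above the wild-type SD in all 8 panels.

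Of the 18 tested Adamts genes 4 (22.2%) were called over 12 libraries, beside 53.1% of all tested genes. The median size of the 18 differences without regard to sign was 0.203, beside 0.247 over all tested genes. Adamts1, which cuts versican and other proteoglycans, had 7.09, 7.30 and 7.68 in null libraries and 7.49, 7.89 and 8.11 in wild-type libraries. It was called lower by 0.50 (SE 0.13, adjusted p = 0.0053 and 0.17 over set means), and the call was lost without null libraries 3, 4 and 6 (adjusted p = 0.088) or without wild-type libraries 1 to 3 (adjusted p = 0.13). Adamts10, which takes part in building fibrillin microfibrils, had 7.50, 7.67 and 7.91 in null libraries and 7.17, 7.34 and 7.57 in wild-type libraries. Its call as higher by 0.30 (adjusted p = 0.018) was lost over set means (adjusted p = 0.29) and with upper quartile scaling (adjusted p = 0.095). Adamts8 was not called, with 7.03 ± 0.17 in null and 7.24 ± 0.19 in wild-type libraries (adjusted p = 0.10). It was called lower without null library 1 (-0.27, adjusted p = 0.029) or wild-type library 2 (-0.28, adjusted p = 0.028).

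Adamts7 was called higher by 0.65 (adjusted p = 0.0068 and 0.15 over set means) and Adamts9, which also cuts versican, lower by 0.34 (adjusted p = 0.010 and 0.22 over set means). Adamts9 lost its call with quantile normalization (adjusted p = 0.054) and Adamts7 without wild-type libraries 4 to 6 (adjusted p = 0.11). With quantile normalization Adamts14, Adamts15, Adamts17 and Adamts20 were called higher (adjusted p = 0.020 to 0.035). The procollagen N-proteinases Adamts2, Adamts3 and Adamts14 were not called, at 0.07, -0.05 and 0.22. The remaining 10 tested Adamts genes were not called either, with differences of -0.20 to 0.37, and Adamts18 was too low to test.

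The members also varied between libraries of the same genotype. The sets of a genotype stood apart by a median of 0.198 in null and 0.209 in wild-type libraries over the tested members, beside 0.160 in null and 0.140 in wild-type libraries over all tested genes. The widest wild-type gaps were those of Col6a4 (1.54) and Mmp7 (1.51), both higher in libraries 4 to 6. The widest null gaps were those of Col4a4 (0.76, higher in libraries 3, 4 and 6) and Col6a5 (0.75, higher in libraries 1, 2 and 5).

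Genes for the modification, binding and control of these proteins were followed on lists by textbook role. Of 27 genes of collagen biosynthesis and crosslinking 5 rose, 10 fell and 12 were not called, with a median of -0.07, and over set means 2 rose and 2 fell. Of all tested genes 28.0% rose and 25.1% fell, and over set means 7.58% and 6.96%. The lysyl hydroxylases Plod2 (-1.57, adjusted p = 1.0e-07 and 0.0084 over set means) and Plod1 (0.67, adjusted p = 8.6e-07 and 0.011 over set means) went in opposite directions. The tolloid-like protease gene Tll2, counted among those that rose in both tests, reached the filter through null libraries alone, with 4.6 to 5.34 in null and 3.37 to 4.02 in wild-type libraries. Plod2 stood at 6.60, 7.10 and 7.37 in null libraries and at 8.52, 8.60 and 8.78 in wild-type libraries.

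Of 14 tested regulators and activators of metalloproteases 7 rose, 2 fell and 5 were not called, with a median of 0.35, and 4 rose over set means. The share called was 64.3%, beside 53.1% of all tested genes, of which 7.58% rose over set means. Serpine2, an inhibitor of thrombin and plasminogen activators, rose by 1.54 (adjusted p = 3.1e-08 and 0.0023 over set means). Lrp1, the receptor that clears protease complexes from the cell surface, rose by 0.49 (adjusted p = 3.2e-06 and 0.034 over set means) and Plaur, the urokinase receptor, by 1.69 (adjusted p = 3.9e-06 and 0.0053 over set means). Plau, urokinase itself, was not called (adjusted p = 0.19). Its null libraries 1, 2 and 5 stood at 10.27, 11.43 and 10.98 and null libraries 3, 4 and 6 at 6.65, 6.39 and 6.74, while wild-type libraries stood at 6.98 to 7.39. Plau was picked out after its values had been seen.

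Of 10 tested collagen receptors and uptake proteins 4 rose, 1 fell and 5 were not called, with a median of 0.13. The share called was 50%, beside 53.1% of all tested genes. The integrin genes Itgb1 (0.32, adjusted p = 1.8e-05 and 0.11 over set means), Itga1 (0.59, adjusted p = 3.3e-04 and 0.070) and Itga10 (0.64, adjusted p = 0.0016 and 0.13) rose over 12 libraries. No gene of that list was called over set means by limma, and 4 had an unadjusted p under 0.05. Of 16 tested other members of the ADAM family 6 rose, 2 fell and 8 were not called, beside 28.0% higher and 25.1% lower of all tested genes. Their median was 0.05, and over set means 1 rose and 1 fell. Adam28, counted among those that fell in both tests, reached the filter through wild-type libraries alone, with 3.11 to 3.58 in null libraries, near the floor, and 6.19 to 8.53 in wild-type libraries. Papln, the papilin gene, rose by 0.96 (adjusted p = 5.2e-06 and 0.016 over set means) and Adamtsl5 by 0.60 (adjusted p = 5.7e-05 and 0.059 over set means).

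Of 30 tested proteoglycans and glycoproteins of the interstitial matrix 6 rose, 8 fell and 16 were not called, with a median of -0.08. The share called was 46.7%, beside 53.1% of all tested genes. Efemp2, a protein of elastic fibres, fell by 0.51 (adjusted p = 2.2e-05 and 0.051 over set means). Prelp rose by 0.32 (adjusted p = 1.7e-04 and 0.064) and Mgp, the matrix Gla protein, by 0.30 (adjusted p = 7.7e-04 and 0.11), with the set-mean value given second. None of that list was called over set means by limma, and 5 had an unadjusted p under 0.05. Fn1, the fibronectin gene, had a mean of 11.50 in null and 11.50 in wild-type libraries, with a SD of 0.48 in null and 0.03 in wild-type libraries. Set beside the 16 of 22 basement membrane partners that rose, these counts are descriptions, and the difference between the lists was not tested.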

How the data were processed

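Per the labels' protocols, poly-A RNA of 6 null and 6 wild-type prostate libraries was sequenced. Tools listed without roles in the submitters' processing notes are DESeq, Cufflinks 2.0.2, TopHat2 2.0.4 and CASAVA 1.8.2, with the build mm9. The authors deposited log2 values, from 1.07 to 21.6, whose form is that of variance-stabilised counts; which transformation was used is not given in the sources. No counts or depths were given, so no count test, interval or floor from counts applies, and fold changes near the floor are understated.

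The deposited values were tested with no further change by limma (version 3.58.1, R 4.3.3) (genotype as the sole term, mean-variance trend, robust moderation, no pseudocount) and Benjamini-Hochberg adjustment. The 2 sets of 3 libraries per genotype were found from the data, as the triplets in which some library came closest to the mean of its partners. The code was checked on simulated data. The members and gene lists were chosen with earlier results of these data known. Named with values were called members without overlap (at most 12 higher and 12 lower), the Timp genes, the 3 tested members of highest mean per family and up to 3 called genes per related list, by adjusted p. Other members are named to complete a class, and the pairs and flanking genes were chosen after their values were seen. Gene order and promoter sequence come from RefSeq (GRCm38.p6). The level of the targeted gene and some other items are not reported here, while counts include every tested gene. Alternatives were other scalings, filters and tests, a random block per set, and leaving out libraries or sets.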

Additional observations from a re-analysis of the deposited data

Results flagged for a closer look

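In 4 of the 56 groups tested (28 named members in 2 genotypes) a single library stood apart from the other 5 of its group. Chance alone gives such a flag in about 1 of 20 groups. Adamts8 stood at 7.35 in null library 1, above the other null libraries at 6.84 to 7.02. Mmp15 stood at 10.43 in null library 2, below the other null libraries at 10.69 to 10.83. Mmp15 stood at 10.99 in wild-type library 2, below the other wild-type libraries at 11.11 to 11.16. Col20a1 stood at 9.33 in wild-type library 3, above the other wild-type libraries at 9.18 to 9.23. The calls of Mmp15 and Col20a1 held without any single library, and Adamts8 was called lower without null library 1 or wild-type library 2.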

How the results depend on the processing

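No member that the naming rule picked was called with the opposite sign under any alternative run; Col5a2, outside it, was called in both directions, as given above. Counts of calls fell under the stricter fits. Of all tested genes 8013 were called, 4984 with a random block per set (correlation 0.503), 2195 over set means and 1056 in a test against a 1.5-fold change. Members called higher numbered 20, and 10, 6 and 3 under these in the same order. Members called lower numbered 19, and 13, 9 and 7, and genes of the related lists called numbered 68, and 46, 19 and 10, in that order too. Leaving out single libraries gave 18 to 22 members higher, 18 to 23 lower, 59 to 70 genes of the related lists and 7586 to 7887 of all genes. Over set means 9 named members lost their call (Adamts1, Adamts10, Col13a1, Col4a2, Col4a6, Col6a3, Col8a2, Mmp11 and Mmp17). Upper quartile scaling moved the median of all genes by -0.071 and quantile normalization by -0.0055. The counts include genes that reached the filter through 1 genotype. A filter at 5 left Mmp8 and Col6a6 untested. No paired analysis was possible because the labels give no replicate numbers. Depth is unknown, so what could be detected near the floor is not known.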

Other observations

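Other cell markers gave these values beside the members. Over 12 libraries 28.0% of all tested genes were called higher and 25.1% lower. Of 8 luminal epithelial markers 4 rose and 3 fell, over set means 2 and 1, with summed levels of 15.41 to 15.84 in null and 15.61 to 15.82 in wild-type libraries. Of 8 adipocyte markers 5 rose, 3 of them over set means, with 7.82 to 11.45 in null and 8.02 to 9.36 in wild-type libraries. Of 3 tested urothelial markers 2 rose, both over set means, with 13.22 to 14.45 in null and 12.54 to 12.78 in wild-type libraries. Of 5 tested skeletal muscle markers 1 rose and 3 were lower, over set means 0 and 2. Among the lower ones, 2, Myh1 and Myh2, reached the filter through wild-type libraries alone. The summed level of the skeletal muscle list was 11.66 to 12.26 in null and 11.46 to 11.60 in wild-type libraries. Of 6 Schwann cell and nerve markers 1 fell, 0 over set means, with 10.36 to 11.19 in null and 10.80 to 10.91 in wild-type libraries. Of 5 tested mast cell markers 1 rose, 0 over set means, with 8.13 to 9.26 in null and 8.60 to 8.70 in wild-type libraries. Their part in the collagen and protease values was not tested. Spock1, a proteoglycan of the testican family on the list of metalloprotease regulators, was singled out after its values were seen. It rose by 2.51 (adjusted p = 3.9e-06 and 0.0010 over set means), with 8.39 to 10.39 in null and 7.08 to 7.21 in wild-type libraries.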
